A study of Mus musculus with 14 samples.

Results

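Of the 1229 genomic sites bound by SIM2 in mouse ES cells, 288 (23.4%) lay at a peak of NANOG and at a peak of OCT4 and had no peak of the Mediator subunits MED1 and MED12. These sites were chosen from the ChIP-seq peak lists themselves. FLAG peaks of the clones A6, B8 and C4 with centres within 100 bp were joined into 1 site, and a site was kept where at least 2 clones had a peak and the parental line EB3 had none within 100 bp. A site was then taken as the 100 bp around its mean centre, and a factor counted as present if a peak of it came within 100 bp of the interval. The presence of SIM2, NANOG and OCT4 and the absence of MED1 and MED12 are therefore the rule and not a result. The other SIM2 sites were 267 with NANOG, OCT4 and Mediator, 362 with NANOG only, 205 with none of the 4 factors and 107 with other combinations.

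The clones are EB3-derived ES cells that carry a Flag-tagged mouse Sim2 transgene behind a promoter that is silent in tetracycline. All 3 clones and EB3, which has no transgene, were kept without tetracycline for 26 h before crosslinking, so that EB3 shares the treatment and lacks the tagged protein. Each clone is 1 line with 1 FLAG library, and the clones serve as the 3 replicates. NANOG, OCT4, MED1 and MED12 were immunoprecipitated in clone A6, with 1 library each and no replicate, so that the class of every site rests on clone A6. SIM2 was overexpressed. The FLAG lists hold 2387 peaks (A6), 2137 (B8), 631 (C4) and 81 (EB3), and the others 14815 for NANOG, 2532 for OCT4, 762 for MED1 and 1071 for MED12.

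SIM2 (Single-minded 2) is a bHLH-PAS transcription factor with a role in the developing nervous system, and it binds DNA as a dimer with ARNT, at elements that hold the core ACGTG. OCT4, encoded by Pou5f1, is the POU-domain factor of pluripotent cells, and it recognises the octamer ATGCAAAT, often beside a SOX2 site. NANOG is the homeodomain factor that, with OCT4 and SOX2, holds ES cells in the undifferentiated state. Mediator is the large complex that connects factors at enhancers with RNA polymerase II, and it is dense at the enhancers of ES cell identity genes.

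The sequences of 4 of the strongest sites are shown first. They are among the 8 that ranked highest for SIM2 signal on average over the clones, of those with a peak in every clone, and that rank was used to choose them. Each is 200 bases of the plus strand of mm9, 5′ to 3′, named by the nearest protein-coding start site. Capitals mark the octamer and ACGTG on either strand.
Klhdc7a, chr4:139558098-139558297: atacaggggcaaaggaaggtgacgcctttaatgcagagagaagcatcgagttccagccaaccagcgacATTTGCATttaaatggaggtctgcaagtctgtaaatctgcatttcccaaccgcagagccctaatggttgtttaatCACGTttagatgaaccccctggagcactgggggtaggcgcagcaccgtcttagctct
Brsk1, chr7:4653962-4654161: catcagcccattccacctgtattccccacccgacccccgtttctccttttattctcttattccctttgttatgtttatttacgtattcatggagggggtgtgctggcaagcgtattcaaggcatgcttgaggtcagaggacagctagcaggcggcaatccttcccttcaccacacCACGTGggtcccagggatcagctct
Limch1, chr5:67114638-67114837: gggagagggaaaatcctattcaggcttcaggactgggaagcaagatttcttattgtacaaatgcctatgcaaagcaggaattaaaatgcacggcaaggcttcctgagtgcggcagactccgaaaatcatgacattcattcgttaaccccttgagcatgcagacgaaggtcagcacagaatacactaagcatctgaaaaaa
Klf6, chr13:5803059-5803258: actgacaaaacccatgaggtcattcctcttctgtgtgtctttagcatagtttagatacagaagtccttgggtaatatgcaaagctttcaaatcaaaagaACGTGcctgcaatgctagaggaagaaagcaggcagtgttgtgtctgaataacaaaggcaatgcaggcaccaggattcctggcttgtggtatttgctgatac

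Klhdc7a, a gene for a kelch-domain protein, had both the octamer, from base 69 of the window on the minus strand, and ACGTG, at base 144 on the minus strand. In the window of Brsk1, a kinase of neuronal polarity, ACGTG lay on both strands in the form of the E-box CACGTG, from base 176. Klf6, a Krüppel-like transcription factor gene, had ACGTG at base 100, which is at the centre of the window. Limch1, which encodes an actin-associated protein, had neither.

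The next 4 sequences carry the octamer joined to a SOX half-site, the arrangement that OCT4 and SOX2 bind together. It was searched as TTTGCAT, any 1 base, and ACAA on both strands, and 7 of the 288 sites (2.43%, 95% Wilson interval 1.18% to 4.93%) held it. It was found in 12 of all 1229 SIM2 sites (0.976%) and in none of 576 windows taken 10 kb to either side of the 288 sites, which allows a share of up to 0.521% (3 counts). The share was 1.12% (0.383% to 3.25%) at the SIM2 sites with Mediator, 2.26% at NANOG and OCT4 peaks without SIM2 or Mediator and 2.25% over all OCT4 peaks. A share of this size was therefore also found at OCT4 peaks in general. In each sequence the capitals mark the octamer together with the composite.
1700012A03Rik, chr6:31898170-31898369: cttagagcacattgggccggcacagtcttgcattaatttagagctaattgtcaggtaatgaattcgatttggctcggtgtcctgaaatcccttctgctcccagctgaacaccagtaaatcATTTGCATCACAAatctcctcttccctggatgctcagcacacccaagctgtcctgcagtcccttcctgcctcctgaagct
Grap2, chr15:80449534-80449733: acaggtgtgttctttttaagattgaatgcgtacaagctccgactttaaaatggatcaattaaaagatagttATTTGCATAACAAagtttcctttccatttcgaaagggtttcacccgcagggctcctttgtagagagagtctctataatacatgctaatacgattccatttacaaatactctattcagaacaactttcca
Pet112l, chr3:85142234-85142433: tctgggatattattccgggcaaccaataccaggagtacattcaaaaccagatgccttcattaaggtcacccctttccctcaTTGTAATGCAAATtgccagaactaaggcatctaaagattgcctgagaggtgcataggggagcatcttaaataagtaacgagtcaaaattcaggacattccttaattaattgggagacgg
Wbscr17, chr5:131653077-131653276: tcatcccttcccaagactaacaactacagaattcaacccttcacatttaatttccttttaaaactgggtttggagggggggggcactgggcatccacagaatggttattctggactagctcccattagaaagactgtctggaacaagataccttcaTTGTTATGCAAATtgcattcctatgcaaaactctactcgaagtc

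The composite began at base 122 of the window at 1700012A03Rik and at base 73 at Grap2, on the plus strand in both. On the minus strand it began at base 82 at Pet112l and at base 157 at Wbscr17. The median distance from the middle of the 7 composites to the OCT4 peak centre was 9.5 bp, against 22.5 bp to the SIM2 centre and 44.5 bp to the NANOG centre. None of the 7 was among the 8 strongest sites for SIM2. At 1700012A03Rik the tag count was 24 in A6, 4.8 in B8 and 5.1 in C4. At Grap2, a signalling adaptor gene, it was 15.4 in A6 and 2 in B8, with no C4 peak.

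The presence of SIM2 in the clones is given first as a description, since it entered the rule. Clone A6 had a peak at 286 of the 288 sites, B8 at 277 and C4 at 119. Of the sites, 169 had peaks in A6 and B8 only, 11 in A6 and C4 only and 2 in B8 and C4 only, and 106 (36.8%, interval 31.4% to 42.5%) had a peak in all 3 clones. Over all SIM2 sites this share was 28.2%. It was 35.6% (30.1% to 41.5%) at the NANOG and OCT4 sites with Mediator, 23.5% (19.4% to 28.1%) at the sites with NANOG only and 16.6% (12.1% to 22.3%) at those with none of the factors. The sites with NANOG and OCT4 were thus found in all 3 clones at about the same share with and without Mediator, and the sites with NANOG only and with none of the factors at lower shares, with intervals that do not overlap those of the first 2 classes. These intervals, like all others here, cover counting error only, and the sites of a class share their libraries.

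**Figure D1:**
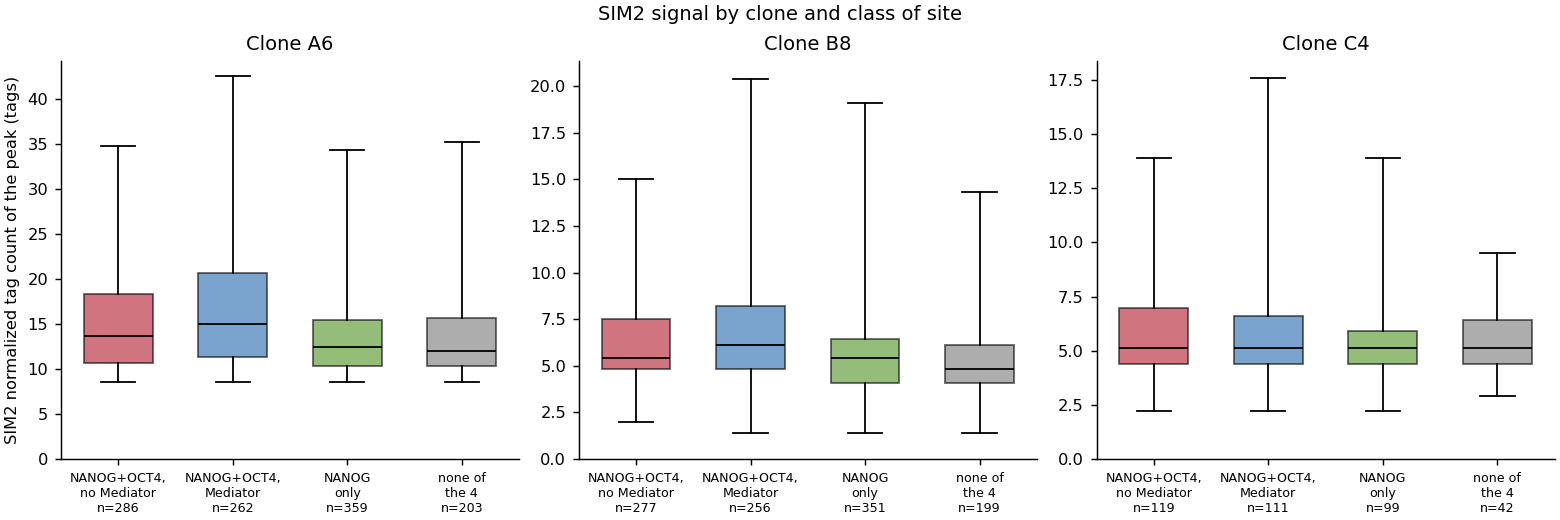
SIM2 normalized tag count (y axis, tags per peak) at sites of 4 classes in clones A6, B8 and C4, each clone with its own scale. Boxes span the quartiles, the line is the median and the whiskers reach the lowest and highest site. The medians of the sites with NANOG and OCT4 but no Mediator were 13.7, 5.4 and 5.1 tags in A6, B8 and C4, and the boxes of all classes overlap in each clone.

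The signal of a SIM2 peak is its normalized tag count, the number of sequenced tags in the peak scaled by HOMER to library size. The tags it stands for were 0.97 times the score of the peak caller in A6 but 0.502 and 0.5 times it in B8 and C4, for a reason not given in the sources used here, so that counts are compared within a clone and not between clones. At the 288 sites the normalized count had a median of 13.7 tags in A6 (lowest 8.6, highest 34.8), 5.4 in B8 (2 to 15) and 5.1 in C4 (2.2 to 13.9). The NANOG and OCT4 sites with Mediator had medians of 15, 6.1 and 5.1 in the same order. Sites with NANOG only had 12.4, 5.4 and 5.1. The value of 1 tag was 0.429, 0.68 and 0.734 in the 3 lists, so that a median in B8 or C4 stands for a handful of tags, and these 3 classes differ there by at most 1 tag.

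The within-clone difference between the median of the 288 sites and that of the sites with Mediator was -0.13 in A6, -0.18 in B8 and 0 in C4 on the log2 scale, with a mean of -0.10 ± 0.09 (SD, n = 3 clones). An exact two-sided sign-flip permutation test over the 3 clones gave p = 0.5. Against the sites with NANOG only the mean difference was 0.05 ± 0.08 (SD, n = 3), with exact sign-flip p = 1. With 3 clones the exact test cannot go below p = 0.25. No difference in SIM2 signal was detectable with this test, and with means of log2 counts in place of medians the differences were -0.05 and 0.15, with the same sign in all 3 clones and an exact permutation p = 0.25, the smallest it can give.

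The 8 strongest sites had peaks well above these medians. At Klhdc7a the SIM2 tag count was 30 in A6, 13.6 in B8 and 12.5 in C4, which was 17.9, 14 and 14.5 times the input. Limch1 had the highest A6 count of the 8, at 34.8, with 14.3 in B8 and 8.8 in C4. Fggy, a carbohydrate kinase gene, had the highest B8 count, at 15, with 27.9 in A6 and 12.5 in C4. Olfm4, which encodes a secreted glycoprotein, had the highest C4 count, at 13.9, with 23.6 in A6 and 9.5 in B8. The order of the sites thus differed between clones. Over the sites with a peak in both, Spearman's rho of the tag counts was 0.53 for A6 and B8 (275 sites), 0.53 for A6 and C4 (117) and 0.37 for B8 and C4 (108), as a description.

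The remaining 4 of these sites lay near Brsk1, Rnd3, Mrpl42 and Klf6, with A6 counts of 31.3, 30.9, 24.9 and 30.9. Only Brsk1 and Fggy were intronic, and the other 6 were intergenic, from 22336 bp (Limch1) to 998952 bp (Olfm4) from a protein-coding start site. The SIM2, NANOG and OCT4 centres nearly coincided at several of them. At Limch1 the NANOG centre was 2 bp and the OCT4 centre 21 bp from the SIM2 centre, and at Fggy the distances were 26 bp and 6 bp. Their NANOG counts ran from 5.4 at Brsk1, below the lower quartile of the 288 sites (10.1), to 26.3 at Olfm4, above the upper quartile (19.4).

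The NANOG signal at the 288 sites had a median of 14.7 tags (quartiles 10.1 and 19.4, range 3.1 to 49.6), and OCT4 had 5.7 (4.7 and 7.3, range 2.5 to 13). Among all 14815 NANOG peaks the median was 6.2, and 224 of the 288 sites (77.8%) carried a NANOG peak of the top 25% of that list. Among all 2532 OCT4 peaks the median was 5.4, and 86 of the 288 sites (29.9%) were in the top 25%. At the SIM2 sites with NANOG, OCT4 and Mediator these shares were larger, 244 of 267 (91.4%) for NANOG and 148 of 267 (55.4%) for OCT4. The 288 sites thus had NANOG peaks from the upper end of the NANOG list and OCT4 peaks from the middle of the OCT4 list. The rule used whether a peak was there and not its height, but it asked for both peaks at once. NANOG peaks with OCT4 but neither SIM2 nor Mediator also had a high median, 11.6, above the upper quartile of all NANOG peaks (9.3). A high NANOG count was therefore not particular to the 288 sites.

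At the SIM2 sites with NANOG, OCT4 and Mediator both factors were higher. The NANOG median was 20.1 there (quartiles 15.1 and 27.9), a log2 difference of -0.45 for the 288 sites, and the OCT4 median was 7.3 (5.4 and 9.65), a difference of -0.36. The quartile ranges overlap for both. NANOG and OCT4 each come from 1 library of 1 clone, so that these differences have no replicate and no test. The 1151 NANOG peaks that had OCT4 but neither SIM2 nor Mediator had a NANOG median of 11.6 (quartiles 8.5 and 16.3), a log2 difference of 0.34 for the 288 sites. The NANOG median was thus lowest at these peaks, higher at the 288 sites and highest at the SIM2 sites with Mediator. The peaks without SIM2 had none in any clone, while the 288 sites needed at least 2 clones, so places with SIM2 in 1 clone only are in neither set. The 190 peaks with NANOG, OCT4 and Mediator but no SIM2 were not compared for NANOG count.

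**Figure D2:**
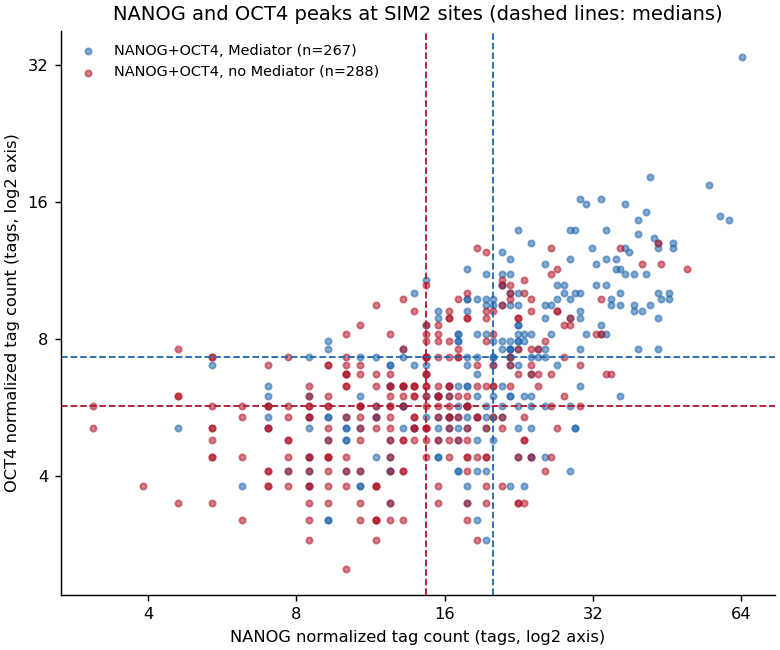
NANOG (x axis) and OCT4 (y axis) normalized tag counts, both on log2 axes, at the 288 SIM2 sites without Mediator (red) and the 267 with Mediator (blue). Each point is a site and the dashed lines are medians, 14.7 against 20.1 for NANOG and 5.7 against 7.3 for OCT4, in clouds that largely overlap.

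Among the 288 sites NANOG and OCT4 went together more than either went with SIM2. Spearman's rho was 0.43 between NANOG and OCT4 (288 sites). Between SIM2 in A6, the clone that gave all 3 libraries, and NANOG it was 0.04, and between SIM2 in A6 and OCT4 it was 0.12 (286 sites each). The 2 factors share an input library, and all these values are bounded below by the peak caller, so they are descriptions only.

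The SIM2 counts at the 3 highest NANOG peaks of the 288 sites differed from one another. In an intron of Ctnnd2, the delta-catenin gene of neurons, NANOG reached 49.6 and OCT4 11.4, while SIM2 was 12.4 in A6 and 7.5 in B8, with no peak in C4. Near Pcdh9, a protocadherin gene, NANOG was 44.1 and SIM2 9.4 in A6 and 3.4 in B8. Upstream of Arid2, which encodes a subunit of a SWI/SNF chromatin remodelling complex, NANOG was 43.4 and SIM2 19.3 in A6 and 9.5 in B8. The Arid2 site also had the highest OCT4 peak, 13, followed by Mrpl42 and by an intron of Lats2, a kinase of the Hippo pathway, both with 12.7. None of the 3 sites with the highest NANOG had a C4 peak, and 2 of them had an A6 count below the median of the 288 sites.

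**Figure D3:**
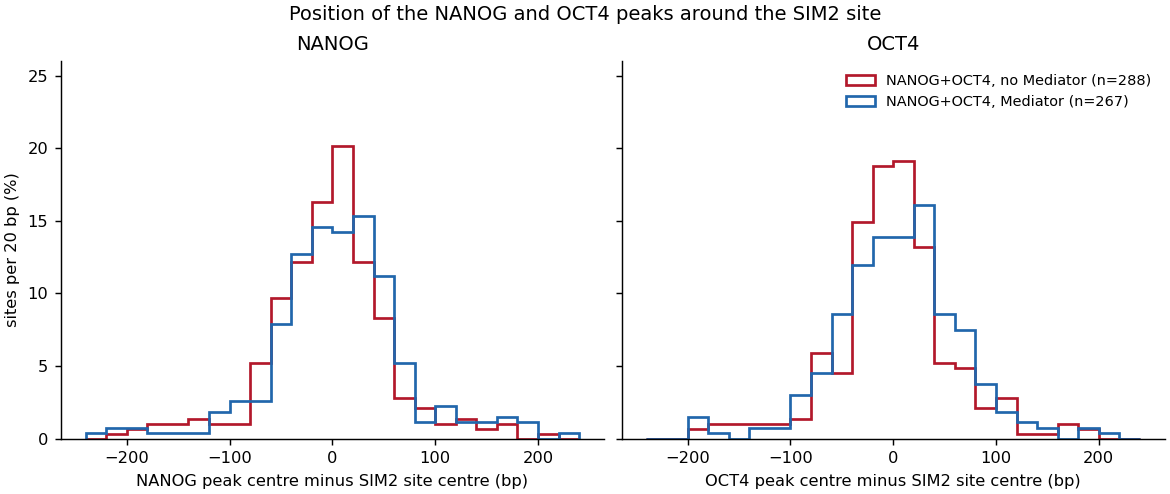
Position of the NANOG (left) and OCT4 (right) peak centre relative to the centre of the SIM2 site in bp (x axis), as the percentage of sites per 20 bp (y axis), at the 288 sites without Mediator (red) and the 267 with Mediator (blue). Both factors peak at the SIM2 centre, with median distances of 31 bp and 29 bp without Mediator and 36 bp and 35 bp with it.

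The NANOG peak centre lay at a median of 31 bp (quartiles 13.8 and 54.5) and the OCT4 peak centre at 29 bp (14 and 55.8) from the SIM2 centre, while NANOG and OCT4 were 25 bp (13 and 47) from each other. All 3 pairs were about equally close. At the sites with Mediator the medians were 36 bp, 35 bp and 23 bp. A site just inside the window was the one near Ahi1, whose NANOG peak was 84 bp away from the interval. The nearest sites that failed on NANOG, near Paqr3 and St6galnac3, had it 157 bp and 176 bp away, and the nearest that failed on OCT4, near Tmcc3 and Gpt2, had it 109 bp and 147 bp away.

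The Mediator threshold had few sites close to it. The nearest MED1 or MED12 peak of the 288 sites was 101 bp away at the site near Zc3h3, 111 bp near Skor2 and 121 bp near St3gal1. On the other side, the Mediator peaks farthest within the window were 100 bp away near 3930402G23Rik, 97 bp near E330013P04Rik and 82 bp near Ric8b. Only 10 of the 288 sites had a Mediator peak within 1000 bp. For the rest it was far, with a median distance over all 288 of 654310 bp.

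Within 10 kb, 16 of the 288 sites (5.56%, interval 3.45% to 8.83%) had a Mediator peak. The share was 9.73% over all 863 SIM2 sites without Mediator at 100 bp, 9.67% (7.03% to 13.1%) at the sites with NANOG only and 15.1% (10.9% to 20.7%) at those with none of the factors. The 288 sites thus had Mediator in the wider neighbourhood no more often than the other Mediator-free sites. Mediator absence means that no peak was called. The lists for MED1 and MED12 are short, a called peak needs about 4 times the input, and tag density at uncalled positions was not used here, so weak Mediator below that limit was not detectable. At the sites with Mediator, 108 had both subunits, 150 MED12 only and 9 MED1 only, so that the 2 lists also differ from each other.

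SIM2 itself was less frequent at NANOG and OCT4 peaks without Mediator. Of 1748 NANOG peaks with OCT4 and no Mediator, 597 (34.2%, interval 32% to 36.4%) had a SIM2 peak in at least 1 clone. With Mediator it was 457 of 647 (70.6%, 67% to 74%). When the peaks were divided into 4 equal groups by NANOG count, the shares without Mediator were 24.7%, 32.4%, 38% and 47.8% from the lowest to the highest group, and those with Mediator were 50.8%, 59.1%, 69.8% and 80.5%. Peaks with Mediator thus had SIM2 more often in each of the 4 groups, with intervals that do not overlap within a group. In the same libraries the share with SIM2 was larger where NANOG was higher.

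**Figure D4:**
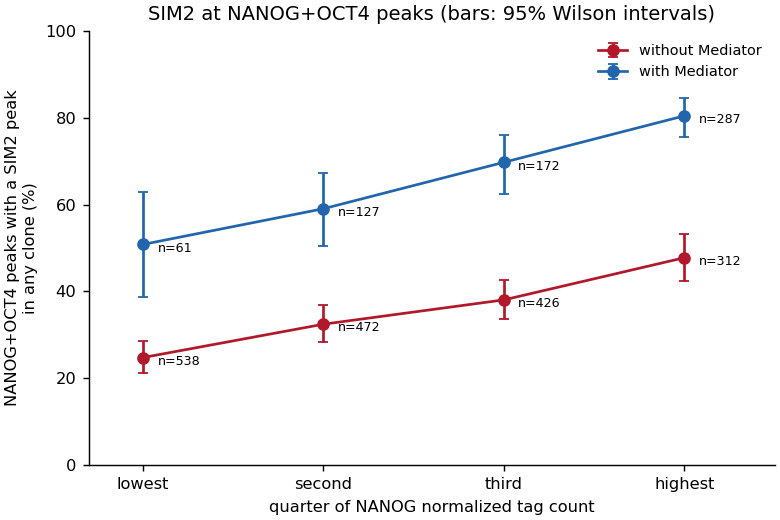
Share of NANOG peaks with OCT4 that had a SIM2 peak in any clone (y axis, %), by group of NANOG tag count (x axis) and by Mediator. Points are shares with 95% Wilson intervals and n is the number of peaks. The share runs from 24.7% to 47.8% without Mediator and from 50.8% to 80.5% with it.

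Of the 10 motifs searched, the octamer was the only one whose interval did not overlap between the SIM2 sites with NANOG and OCT4 that lacked Mediator and those that had it. In windows of 200 bp around the centre, 43 of the 288 sites (14.9%, interval 11.3% to 19.5%) held ATGCAAAT on either strand, against 7.4% of all SIM2 sites. The share was 18 of 267 (6.74%, 4.31% to 10.4%) at the SIM2 sites with NANOG, OCT4 and Mediator, and 4.7% (2.95% to 7.39%) at those with NANOG only. In the 576 windows 10 kb to either side it was 1.04% (0.478% to 2.25%). The octamer was thus found at more than 2 times the share of the sites with Mediator. The GC content of the windows was the same, with a median of 45% in both classes.

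The windows of peaks without SIM2 gave shares of 12.3% (10.6% to 14.4%) for NANOG and OCT4 without Mediator, and 17 of 190 (8.95%, 5.66% to 13.9%) for NANOG and OCT4 with Mediator. Of all OCT4 peaks 11.1% (9.97% to 12.4%) had the octamer, an interval that overlaps those of the SIM2 sites both without and with Mediator. With the windows centred on the NANOG peak in place of the SIM2 site the shares were 15.3% (11.6% to 19.9%) without Mediator and 8.61% (5.81% to 12.6%) with it, and those intervals do overlap.

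Of the 47 octamers in the 288 sites, 30 lay within 50 bp of the SIM2 centre. The median distance of the 47 was 34.5 bp to SIM2, 38.5 bp to OCT4 and 43.5 bp to NANOG. Only the 200 bp around the SIM2 centre were searched, which bounds the distance to SIM2 but not the others. These distances therefore do not show which centre the octamers lie nearest to, and the share for evenly placed octamers was not computed. Sites with and without the octamer had the same median OCT4, 5.7, and the same median SIM2 in B8, 5.4. Medians with the octamer were higher for NANOG (15.5 against 14.7) and for SIM2 in A6 (15 against 13.3) and C4 (5.5 against 5.1). These differences were not tested. The share found in all 3 clones was 37.2% with and 36.7% without.

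ACGTG, the core bound by SIM2 with ARNT, was in 26 of the 288 windows (9.03%, interval 6.24% to 12.9%), against 14.1% of all SIM2 sites. It was in 10.5% (7.36% to 14.7%) of the sites with Mediator, 14.9% (11.6% to 19%) of those with NANOG only and 22.4% (17.3% to 28.6%) of those with none of the 4 factors, and only the last interval lies apart from that of the 288 sites. ACGTG contains a CpG, and the median GC content of the windows was 52.5% with none of the factors against 45% at the 288 sites. The share 10 kb to either side was 8.33% (6.34% to 10.9%), so that at the 288 sites it was near that of the surroundings. The windows 10 kb away had a median GC content of 43.25%. At the NANOG and OCT4 peaks without SIM2 or Mediator it was 2.87% (2.05% to 4%), where the median GC content was 41%. The part of GC content in these differences was not tested. The E-box CACGTG, which contains ACGTG, was in 7 of the 288 windows (2.43%), against 2.28% of all SIM2 sites and 2.43% 10 kb away.

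The 26 sites with ACGTG had more SIM2 in 2 of the 3 clones. The median tag count was 16.8 with and 13.3 without it in A6, 6.8 and 5.4 in B8, and 4.75 and 5.1 in C4. Of those 26 sites, 53.8% were found in all 3 clones, against 35.1% of the other 262. With so few sites the first share is uncertain, no interval was computed, and a link was not tested. NANOG was lower at the sites with ACGTG, with a median of 11.6 against 14.7, and OCT4 was 5.85 against 5.7. The strong sites of Klhdc7a, Brsk1 and Klf6 are among them.

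**Figure D5:**
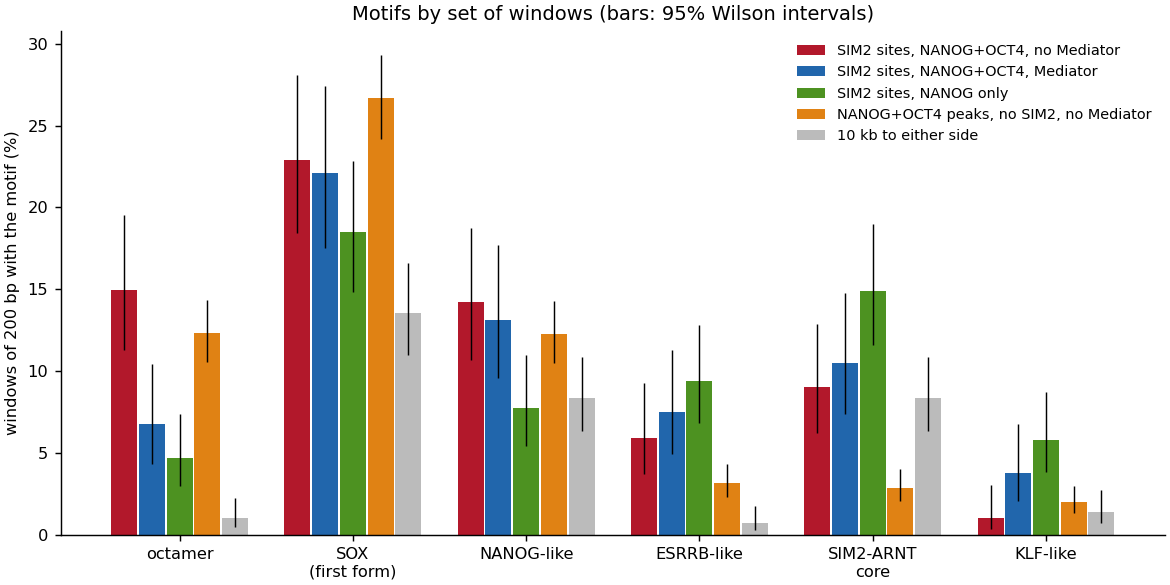
Share of 200 bp windows with a motif on either strand (y axis, %) in 5 sets of windows, with 95% Wilson intervals as bars. The octamer was in 14.9% of the 288 sites without Mediator, 6.74% of those with it and 1.04% of windows 10 kb away, while ACGTG, labelled SIM2-ARNT core, was in 9.03% of the 288 sites and 8.33% of windows 10 kb away.

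The other motifs did not separate the 288 sites from those with Mediator. The SOX hexamer ACAATG was in 22.9% (18.4% to 28.1%) and 22.1% (17.5% to 27.5%), and ACAAAG was in 35.8% (30.4% to 41.5%) and 38.6% (32.9% to 44.5%). Over all SIM2 sites ACAATG was in 19.9% and ACAAAG in 33.5%. TAATGG, a form bound by NANOG, was in 14.2% (10.7% to 18.7%) and 13.1% (9.58% to 17.7%). Its share was 9.68% over all SIM2 sites and 8.33% 10 kb away. CAAGGTCA, the element of the orphan receptor ESRRB, was in 5.9% (3.72% to 9.25%) and 7.49% (4.9% to 11.3%), against 0.694% 10 kb away. Over all SIM2 sites it was in 7.08%. CCACACCC, a KLF element, was in 1.04% (0.355% to 3.02%) and 3.75% (2.05% to 6.76%). Its share was 3.99% (3.03% to 5.23%) over all SIM2 sites and 5.8% (3.83% to 8.71%) with NANOG only. The interval with NANOG only lies above that of the 288 sites, and the one over all SIM2 sites, which include the 288, barely does. The share of the 288 sites rests on only 3 windows and was near the 1.39% found 10 kb away. TTCC, any 1 base, GGAA, a STAT element, was in 1.39% and 0.749%, and in 1.63% of all SIM2 sites. For each of these motifs the interval of the 288 sites overlaps that of the sites with Mediator. A match is a description of the letters and not of binding.

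Most of the 288 sites lay outside promoters, like SIM2 sites in general, and their median distance to a start site was the largest of the classes. By the protein-coding genes of GENCODE vM1, 159 (55.2%) were intergenic, 114 (39.6%) intronic, 4 exonic, 5 at a termination site and 6 (2.08%, interval 0.958% to 4.47%) in a promoter, against 3.66% of all SIM2 sites in a promoter. Over all SIM2 sites 57.4% were intergenic, 35.9% intronic, 1.06% exonic and 1.95% at a termination site, so that the shares of the 288 sites were near these. The median distance to the nearest start site was 37504 bp (quartiles 12572 bp and 99966 bp). It was 25055 bp over all SIM2 sites, 22318 bp at those with Mediator and 28262 bp at those with NANOG only. With none of the factors it was 18046 bp, and with other combinations 19591 bp. Within 100 kb of a start site lay 75% (69.7% to 79.6%) of the 288 sites and 83.1% (78.2% to 87.2%) of the sites with Mediator, intervals that overlap slightly. Over all SIM2 sites, which include the 288, the share was 82% (79.8% to 84.1%), an interval just above that of the 288 sites. With none of the factors it was 90.2% (85.4% to 93.6%).

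Few of them had another SIM2 site nearby. A further SIM2 site lay within 10 kb of 9 of the 288 (3.13%, interval 1.65% to 5.83%), against 9.85% of all SIM2 sites, 15% (11.2% to 19.8%) of those with Mediator, 12.7% (8.8% to 17.9%) of those with none of the factors and 7.73% (5.41% to 11%) of those with NANOG only. The interval of the sites with NANOG only overlaps that of the 288 sites, and the intervals of the other 2 classes do not. The 9 were the sites near Utrn (2 sites), Tmem106a, Klf6, Klf5, Zc3h3, Tmprss12, Rif1 and Tbx3. Of these, Klf5, Zc3h3, Tmprss12, Rif1 and Tbx3 were among the 16 with a Mediator peak within 10 kb. No EB3 peak lay within 10 kb of any of the 288. The EB3 list held only 81 peaks, and the rule had removed sites with one within 100 bp, so this is no check of specificity.

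The nearest protein-coding genes numbered 273, and 15 of them were nearest to 2 of the sites each. Among 141 genes of 5 lists (pluripotency network, signalling, chromatin, neural and lineage genes, bHLH-PAS genes), 7 were nearest to one of the 288 sites, which made 9 sites (3.13%, interval 1.65% to 5.83%). Over all SIM2 sites 6.02% (4.82% to 7.49%) were nearest to a listed gene, an interval that overlaps that of the 288 sites. The share was 4.14% (2.53% to 6.72%) with NANOG only, 2.44% (1.05% to 5.58%) with none of the factors and 11.2% (30 of 267, 7.98% to 15.6%) with Mediator. The interval with Mediator lies above that of the 288 sites, and those with NANOG only and with none of the factors overlap it. The nearest gene is a label of position, and no gene expression was analysed here.

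Of the 29 annotated pluripotency genes 4 were nearest to one of the 288 sites, Klf5, Tbx3, Rif1 and Jarid2, and 16 to any of the 1229 SIM2 sites. Klf5, a Krüppel-like factor of ES cell self-renewal, had 2. The first, chr14:99739497-99739597, was 41637 bp downstream of the start and held an octamer, with SIM2 at 24.9 in A6, 8.2 in B8 and 6.6 in C4, NANOG at 19.4 and OCT4 at 7.9. Its nearest Mediator peak was MED1 at 215 bp, so that it lay just outside the window. The second, 211615 bp downstream, had lower SIM2, 9 in A6 and 4.8 in B8, and higher NANOG, 30.2, with Mediator 110833 bp away.

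The site in an intron of Jarid2, which encodes a partner of the Polycomb complex PRC2 and stood in the chromatin list too, had NANOG at 20.9, with SIM2 at 12.4 in A6, 9.5 in B8 and 4.4 in C4. It is chr13:44847268-44847368, and the nearest Mediator peak was 22595 bp away. Near Tbx3, a T-box factor of the pluripotency network, SIM2 was 13.3 in A6 and 6.8 in B8. There the NANOG centre was at 0 bp and the OCT4 centre at 5 bp from the SIM2 centre, and Mediator was 4899 bp away. Near Rif1, a gene of replication timing and DNA repair, SIM2 was 9.9 in A6 and 5.4 in B8, and a MED12 peak lay 655 bp away. Of these 5 sites, 2 were found in all 3 clones.

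Of the 38 signalling genes 16 were nearest to any SIM2 site, and 1 to a site of the 288. It was Spred1, an inhibitor of the RAS and MAP kinase pathway. The site lay 1334 bp upstream of the start, held ACGTG, and had SIM2 at 18.9 in A6 and 10.9 in B8, with a MED12 peak 208 bp away. In the lineage list, near Eomes, a T-box factor of early lineages, SIM2 was 15.9 in A6 and 6.1 in B8, NANOG was 7 and OCT4 was also 7. Of the 21 bHLH-PAS genes, the family of Sim2 and Arnt, 0 were nearest to one of the 288 sites and 1, Ncoa3, to any of the 1229.

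Some of the 288 windows were alike in sequence. Windows of 200 bases that shared at least 10 different words of 12 bases on either strand were put in 1 group, by chaining over all SIM2 sites. Of the 288 sites 46 (16%, interval 12.2% to 20.6%) fell in such a group, against 12.3% of all SIM2 sites and 16.8% and 17.6% of windows 10 kb before and after the sites. The share was thus no larger than in the surrounding genome. Of the NANOG and OCT4 peaks without SIM2 or Mediator 29.2% (26.6% to 31.9%) were in a group. Of the 46 sites in groups 26.1% were found in all 3 clones, against 38.8% of the others, and their median SIM2 count was 11.8 against 14.2 in A6. No interval was computed for these shares, and the difference was not tested.

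Counted by sites of the 288, the second largest group held 8, on 6 chromosomes, and 6 of them share a stretch of 20 bases that is shown in capitals. It was chosen after its values were seen, because its copies are the clearest. Each line gives 60 bases of mm9 with the stretch in 1 orientation, and the strand after the coordinates is the one printed.
Olfr820, chr10:129441317-129441376, minus strand: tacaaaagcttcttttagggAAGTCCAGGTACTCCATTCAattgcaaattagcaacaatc
Tmprss12, chr15:100104399-100104458, minus strand: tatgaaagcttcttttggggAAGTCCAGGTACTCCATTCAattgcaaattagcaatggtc
Ndufaf4, chr4:24819617-24819676, minus strand: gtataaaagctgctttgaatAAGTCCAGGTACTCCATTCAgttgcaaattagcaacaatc
Olfr159, chr4:43808919-43808978, plus strand: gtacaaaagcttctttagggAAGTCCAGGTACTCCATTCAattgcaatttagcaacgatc
Gm17448, chr5:30384961-30385020, minus strand: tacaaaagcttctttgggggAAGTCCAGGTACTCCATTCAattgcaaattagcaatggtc
Chordc1, chr9:17883760-17883819, plus strand: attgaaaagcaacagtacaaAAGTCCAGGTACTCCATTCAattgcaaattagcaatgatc

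This stretch occurs 143 times in mm9 on either strand of chromosomes 1 to 19 and X. Of these copies 47 had NANOG within 100 bp, 25 had OCT4 and 24 had both. Mediator was at 7 of them, and a SIM2 site had its centre within 100 bp of 9. The group holds 19 SIM2 sites in all, 9 of them with NANOG, OCT4 and Mediator. Its 8 sites without Mediator had A6 counts from 8.6 to 13.7, NANOG from 6.2 to 20.9 and OCT4 from 3.2 to 7.6, and 1 was found in all 3 clones. How reads that fit several copies were placed is not given in the sources used here, and its part in these peaks was not tested.

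The 288 sites were spread over all 20 chromosomes with SIM2 sites. They made up between 8.77% (5 of 57, chromosome 9) and 33.8% (27 of 80, chromosome 5) of a chromosome's SIM2 sites, which are the extremes of the 20 shares, with intervals of 3.81% to 18.9% and 24.3% to 44.6%. On chromosome 4 the share was 32.3% (30 of 93). The shares of the other 17 chromosomes lay between 15.2% and 32.5%.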

How the data were processed

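ChIP-seq peak lists of the clones A6, B8 and C4 (FLAG), EB3 (FLAG) and A6 (NANOG, OCT4, MED1, MED12) were used, 8 in all. The authors used BWA for mapping to mm9 and HOMER for calling peaks in each library against an input, without duplicate reads. The deposited normalized tag count is a signal scaled to library size. The deposited fold over the input is a ratio, and the score and p-value were given by the authors' HOMER run. The lists also hold, as deposited, total tags, which are whole counts in 5 lists, and a fraction describing how tags lie around the centre. Columns were compared only within a list.

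Normalized counts fell on equal steps for 98.8% to 100% of peaks. With HOMER's default scale of 10 M (megatags) these correspond to 12.9 M to 31.5 M per library, 23.3 M in A6, 14.7 M in B8 and 13.6 M in C4. Peak height therefore carries counting error, largest in B8 and C4.

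Sites and classes were rebuilt as given in the report. The members, gene lists and motifs were chosen with earlier results of these data known. The sites named were, of those with a peak in every clone, the 8 of highest mean SIM2 rank, the 3 with the highest NANOG and OCT4 count, the 3 on each side of the Mediator limit, those nearest to a listed gene and up to 6 with the composite. Differences between classes of site were taken within each clone and tested over the clones with the exact sign-flip permutation test, and no test was run over sites. Shares have 95% Wilson intervals, except the shares found in all 3 clones among sites split by motif or sequence group. A motif count of 0 is given with the share that 3 counts would be. The genome was NCBIM37, which is mm9, and genes were protein-coding genes of GENCODE vM1, with promoters from 1 kb upstream to 300 bp downstream of a start. Site calling, the motif search and the grouping were tested on simulated data. Python 3.11.15, numpy 2.4.6, pandas 2.3.3, scipy 1.17.1 and matplotlib 3.10.9 were used, and overlaps were checked with bedtools 2.31.1. SOX2 peaks were not analysed here, and not every site that met these rules is reported here.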

Additional observations from a re-analysis of the deposited data

How the results depend on the processing

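The results were recomputed with 1 choice changed at a time, which gave 130 values, and 113 of them kept their direction and stayed within their tolerance (1.5 times for counts and distances, the 95% interval for shares, 1 tag for NANOG and OCT4). None reversed. With peaks at least 8 times the input in every list 35 sites remained: 42.9% were found in all 3 clones, 14.3% had ACGTG, 2.86% had Mediator within 10 kb, and the log2 difference of NANOG was -0.58 against the sites with Mediator and 0.19 against the peaks without SIM2 or Mediator. The cause was not tested, but only 49 of the 288 sites had OCT4 at 8 times the input. Leaving out A6 or B8 left 107 and 114 sites, since sites then had to be in both other clones, and leaving out C4 left 273. Over these settings the log2 difference of OCT4 from the sites with Mediator ranged from -0.47 to -0.36 and the share with ACGTG from 9.16% to 13.1%, and the share in all 3 clones has no value. The octamer was in 9.38% of 100 bp windows and ACGTG in 5.56%, and in 400 bp windows ACGTG was in 14.9%, as shorter and longer windows hold fewer and more matches. Counting all annotated genes brought the median distance to a start site to 22105 bp. The share with Mediator within 10 kb was 2.71% with a factor window of 1000 bp and 2.16% where Mediator was absent within 1000 bp, which removes the nearest peaks, and 9.03% had Mediator within 25 kb. Means of log2 counts and the removal of sequence groups were added after seeing the data. Depth limits the SIM2 comparison in B8 and C4 to steps of 1 tag. The SIM2 comparisons are paired within clones by construction, and a pairing of the other ChIPs was not possible, with 1 library each.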
